A study of Mus musculus with 9 samples.

Results

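The genes described here are 10 secreted or membrane-bound factors, most of which draw neutrophils or monocytes into tissue or keep them alive there. These 10 genes were taken as the rows of the deposited count table that carry their symbols, out of the 56748 genes in that table. They were chosen by what the proteins do, with earlier results of these data known. They fall into 3 ligands of the neutrophil receptor CXCR2 (Cxcl1, Cxcl2 and Cxcl5), 4 CC chemokines (Ccl2, Ccl5, Ccl7 and Ccl20), 2 membrane-bound chemokines (Cxcl16 and Cx3cl1) and the macrophage growth factor Csf1. RNA of primary pancreatic islets from C57bl/6 mice of genotype wt was sequenced in 9 libraries. In the control group (3 libraries) islets received no treatment. Islets of the inflamed group (3 libraries) were exposed for 48 hours to the cytokines IL-1beta, TNF-alpha and IL-6. In the particle group (3 libraries) the same cytokines were combined with PD-G-MSNPs, mesoporous silica nanoparticles with a polydopamine coat. The study asked how islets exposed to cytokines fare with and without the particles. Particles without cytokines were not analysed here. Neither the age of the mice nor whether replicates came from separate animals is stated in the labels. Each p-value measures the spread of these libraries, which may be technical in part.

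Chemokines are small proteins that bind G protein-coupled receptors on leukocytes and direct their movement along a gradient. Ligands of CXCR2 act mainly on neutrophils, whereas Ccl2 and Ccl7 act on CCR2 of inflammatory monocytes, and Csf1 signals through CSF1R for the survival and growth of macrophages. Islets hold resident macrophages and endothelial cells beside their endocrine cells. Interleukin-1 and TNF activate the transcription factor NF-kB, for which several chemokine promoters are textbook targets.

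The promoter sequences of the members are shown first because the factor activated by these cytokines is known to bind kappaB motifs near the start of such genes. RefSeq windows (GRCm38.p6) were matched for 5 of the 10 members, and the 250 bases before the start are printed on the gene's own strand, 5′ to 3′. Capitals mark a match to the kappaB consensus, the motif of NF-kB, on either strand. The windows lie at chr5:90890995-90891244 (plus strand) for Cxcl1, chr5:90903649-90903898 (plus) for Cxcl2, chr1:83116516-83116765 (plus) for Ccl20, chr3:107760470-107760719 (minus) for Csf1 and chr8:94771930-94772179 (plus) for Cx3cl1.
Cxcl1: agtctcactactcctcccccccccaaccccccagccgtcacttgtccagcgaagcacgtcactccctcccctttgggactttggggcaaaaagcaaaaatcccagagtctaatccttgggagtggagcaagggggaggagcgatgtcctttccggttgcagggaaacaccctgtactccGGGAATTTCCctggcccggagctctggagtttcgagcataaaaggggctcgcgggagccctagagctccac
Cxcl2: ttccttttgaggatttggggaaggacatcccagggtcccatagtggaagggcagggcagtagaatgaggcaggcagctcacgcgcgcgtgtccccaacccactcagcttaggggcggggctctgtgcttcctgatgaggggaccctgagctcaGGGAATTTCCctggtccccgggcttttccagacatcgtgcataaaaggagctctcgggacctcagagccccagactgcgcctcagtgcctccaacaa
Ccl20: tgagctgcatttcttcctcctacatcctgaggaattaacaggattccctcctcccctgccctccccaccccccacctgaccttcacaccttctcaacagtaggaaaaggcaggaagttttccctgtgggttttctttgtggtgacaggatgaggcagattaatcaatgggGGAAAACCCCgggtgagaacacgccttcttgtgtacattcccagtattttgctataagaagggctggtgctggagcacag
Csf1: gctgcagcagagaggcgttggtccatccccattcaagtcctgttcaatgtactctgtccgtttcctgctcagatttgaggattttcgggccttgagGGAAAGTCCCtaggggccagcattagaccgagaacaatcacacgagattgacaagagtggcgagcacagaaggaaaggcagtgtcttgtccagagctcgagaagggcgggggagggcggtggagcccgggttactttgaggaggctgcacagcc
Cx3cl1: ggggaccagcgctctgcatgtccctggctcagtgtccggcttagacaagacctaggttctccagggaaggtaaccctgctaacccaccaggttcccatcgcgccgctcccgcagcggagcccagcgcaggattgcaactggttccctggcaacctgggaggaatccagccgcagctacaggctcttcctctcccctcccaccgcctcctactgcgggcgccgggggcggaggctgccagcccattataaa
Cxcl1, Cxcl2, Ccl20 and Csf1 held 1 match each, and the Cx3cl1 window held none. Cxcl1 and Cxcl2 shared the same site, GGGAATTTCC, which began 71 bases before the start in Cxcl1 and 97 bases before it in Cxcl2. On the opposite strand, the Ccl20 match read GGGGTTTTCC and spanned 80 to 71 bases before the start. The Csf1 match read GGGACTTTCC, also on the opposite strand, and spanned 154 to 145 bases before the start. Over all 32851 windows of the same length, 5.0% held at least 1 kappaB match. The letters of AP-1 (TGANTCA, in 6.75% of windows) and C/EBP (TTGCNNAA, in 9.56%), searched on both strands, were found in none of the 5. These motifs were chosen after the windows had been seen, and a match is a description of letters only.

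**Figure D1:**
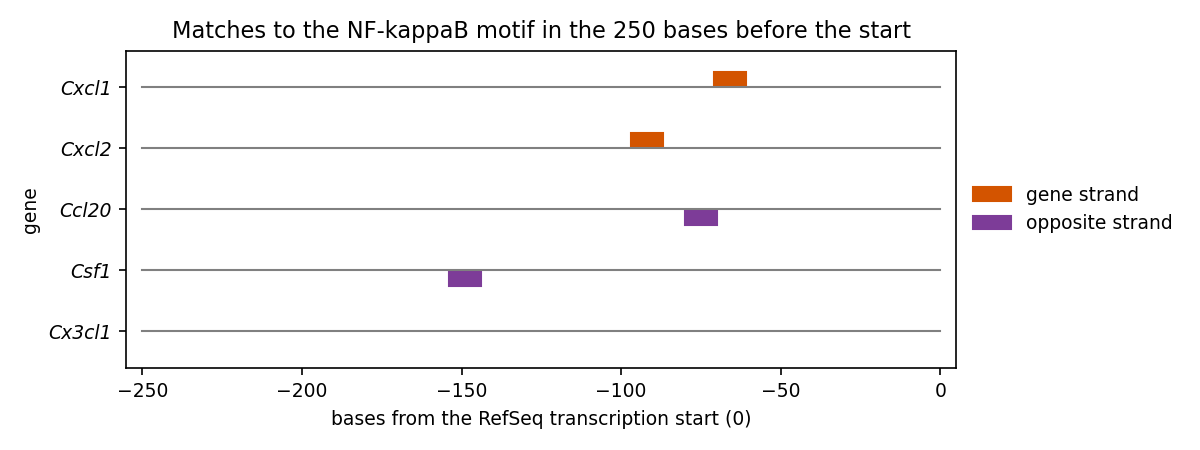
Matches to the NF-kappaB letters in the 250 bases before the RefSeq start of 5 members (x axis, bases from the start at 0; rows, genes; orange, match on the gene's strand; purple, match on the opposite strand). Cxcl1, Cxcl2, Ccl20 and Csf1 have 1 match each, beginning 71 to 154 bases before the start, and the Cx3cl1 row is empty.

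Total counts per library ranged from 17832949 to 55865759, and the deepest was inflamed replicate 3. Insulin transcripts took 28.5% to 29.2% of counts in control, 13.0% to 21.2% in inflamed and 8.55% to 21.6% in particle libraries, and all 10 beta cell markers had counts in each group. Levels are given as CPM, counts scaled to TMM-adjusted library totals, which compare libraries within a gene. Levels of different genes are compared only as the deposited FPKM, which divide by gene length. A gene was called changed when edgeR's quasi-likelihood test, adjusted over the 17276 genes tested, gave an adjusted p under 0.05, and every adjusted p below comes from that test unless another tool is named. In these bulk samples, a change in the number of cells of a type and a change in RNA per cell cannot be told apart.

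The CXCR2 ligands were nearly silent in control islets and abundant under cytokines. Cxcl1 (ENSMUSG00000029380), Cxcl2 (ENSMUSG00000058427) and Cxcl5 (ENSMUSG00000029371) lie on chromosome 5 of GRCm39, at 91039100 to 91040974, 91051730 to 91053797 and 90907219 to 90909483. Cxcl1 and Cxcl2 are 10.8 kb apart, and Cxcl5 lies 129.6 kb before Cxcl1. Cxcl1, the main mouse neutrophil attractant of this group, was at 0.0826, 2.58 and 0.0359 CPM in control replicates 1 to 3 and at 173, 132.6 and 285.3 CPM in the inflamed libraries. The groups did not overlap, the mean CPM was 219.3-fold higher, and the fitted log2 fold change was 7.84 ± 1.55 (SE; adjusted p = 0.006121). Of the 59 control counts of Cxcl1, 56 came from control replicate 2. Without that library the log2 fold change was 11.6 and the call held (adjusted p = 0.002331). Control counts of 2 and 1 were then left, so 11.6 is not a bound on the change.

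Cxcl2, another CXCR2 ligand made early by activated macrophages, was at 0.124, 0.368 and 0.359 CPM in control and at 33.9, 15.5 and 76.7 CPM in inflamed libraries. All inflamed libraries were above all controls, and the log2 fold change was 7.19 ± 1.33 (SE; adjusted p = 0.003507). Cxcl5, known mainly as an epithelial and stromal product, was at 0, 1.98 and 0.0359 CPM in control and at 43.7, 10.7 and 72.1 CPM in inflamed libraries. Its groups did not overlap either, and the fitted log2 value was 6.04 ± 1.80 (SE; adjusted p = 0.03283). That call was the least secure of the members. It was lost in 7 of 19 alternatives, among them the fits without control replicate 1 or 3 and without inflamed replicate 1 or 3, with adjusted p-values over all alternatives of 0.0037 to 0.1161. Control replicate 2 again held nearly all control counts of Cxcl5 (43 of 44), and without it the log2 fold change was 10.77 (adjusted p = 0.01491). Control counts of 0 and 1 were then left, so 10.77 is not a bound either.

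**Figure D2:**
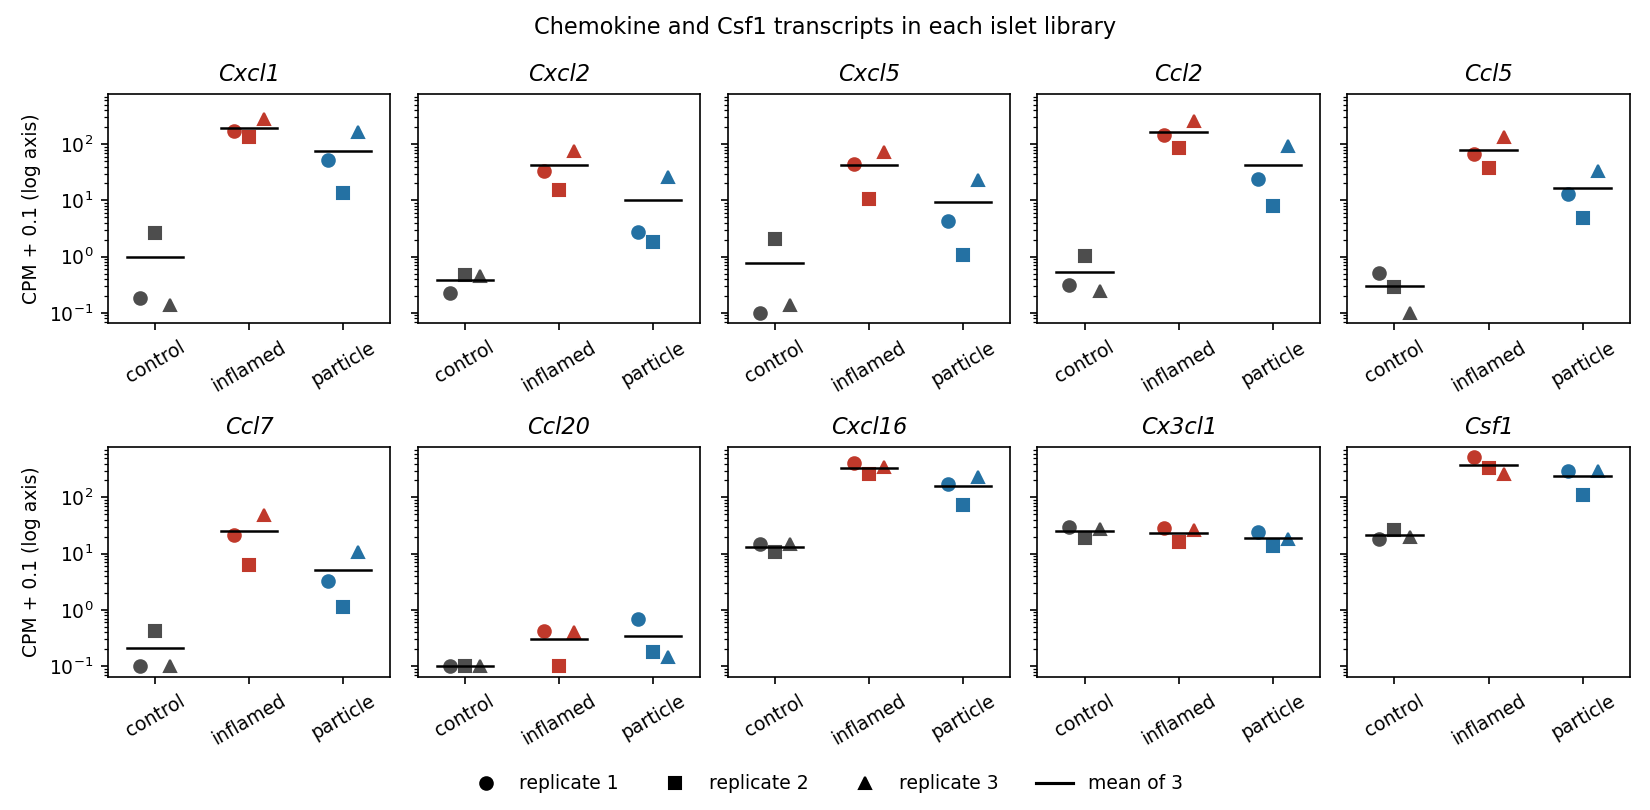
CPM plus 0.1 of each of the 10 genes in each library (log axis; symbols, replicates; horizontal bars, the mean of 3 libraries). The inflamed libraries of Cxcl1 sit between 132.6 and 285.3 CPM and its controls at or below 2.58 CPM, while the 3 groups of Cx3cl1 lie together between 13.7 and 29.3 CPM.

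Among the CC chemokines, Ccl2, Ccl5 and Ccl7 rose with cytokines and Ccl20 stayed near the detection limit. Ccl2 (ENSMUSG00000035385; chromosome 11, 81926397 to 81928279) and Ccl7 (ENSMUSG00000035373; 81936538 to 81938351), both ligands of CCR2, are 8.26 kb apart. Ccl2 was at 0.207, 0.92 and 0.144 CPM in control and at 144.3, 86.8 and 260.0 CPM in inflamed libraries. Its mean was 386.7-fold higher (log2 fold change 8.64 ± 1.22 SE; adjusted p = 0.001048), and the groups did not overlap. Ccl7 had 7 control counts in all, every one in control replicate 2, which put the 3 controls at 0, 0.322 and 0 CPM. In inflamed libraries Ccl7 was at 21.0, 6.10 and 49.5 CPM, above every control, and the fitted log2 value was 7.97 ± 1.47 (SE; adjusted p = 0.003055). Without control replicate 2 no control count was left and the fitted value of Ccl7 was 12.44, which is not a bound on the change (adjusted p = 0.01026). The call of Ccl7 was lost with limma-voom (adjusted p = 0.08854).

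Ccl5 (ENSMUSG00000035042; chromosome 11, 83416604 to 83421344), a ligand of CCR1 on monocytes, was at 0.413, 0.184 and 0 CPM in control and at 66.3, 36.8 and 131.4 CPM in inflamed libraries. Its mean rose 392.8-fold (log2 fold change 8.63 ± 1.10 SE; adjusted p = 5.099e-04), with no overlap. Ccl20 (ENSMUSG00000026166; chromosome 1, 83094487 to 83096888), the ligand of CCR6, had no count in the 3 controls, then 7, 0 and 16 counts in inflamed libraries and 12, 2 and 1 in particle libraries. It did not pass the count filter and was not tested. Against a floor of 3 counts over the control group, pooled CPM was at least 5.82-fold higher in inflamed and at least 5.41-fold higher in particle libraries. These floors cover counting error only, and 1 inflamed library had no count. With any 1 library left out, the bound for inflamed libraries was 3.63 to 7.51 (the lowest without control replicate 3). That for particle libraries was 3.37 to 7.62, except that without particle replicate 1 only 3 counts were left. Its promoter window held a kappaB match, as did those of Cxcl1 and Cxcl2, and its mean level in inflamed libraries was 0.142 FPKM against 102.5 and 19.9 FPKM for those 2 genes.

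The membrane-bound chemokines, which tether leukocytes and are released by proteases, gave 1 call between them. Cxcl16 (ENSMUSG00000018920; chromosome 11, 70344809 to 70350810), also a scavenger receptor for oxidised lipoprotein, was measurable in control at 14.5, 10.5 and 14.7 CPM and reached 409.7, 259.5 and 348.0 CPM in inflamed libraries. The groups did not overlap, the mean was 25.6-fold higher and the log2 fold change was 4.68 ± 0.42 (SE; adjusted p = 2.357e-05). Cxcl16 shares 552 bases with Zmynd15 on the opposite strand, and the labels do not say whether counting used strand. Reads of the pair may therefore be mixed. Zmynd15 had a mean of 4.87 CPM in control, 49.2 CPM in inflamed and 25.8 CPM in particle libraries.

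Cx3cl1 (ENSMUSG00000031778; chromosome 8, 95498637 to 95509055), the ligand of CX3CR1 on resident macrophages, was the one tested member without a call. It was at 29.3, 18.7 and 27.7 CPM in control and at 28.5, 16.2 and 25.9 CPM in inflamed libraries, so the groups overlapped throughout. The log2 fold change was -0.10 ± 0.28 (SE; adjusted p = 0.803), with a 95% interval from -0.72 to 0.53. Intervals here and below use the degrees of freedom of the same test. This interval leaves out changes of the size seen in the other members. The sign itself depended on the processing, being 0.07 with library totals alone and 0.10 without inflamed replicate 2.

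Csf1 (ENSMUSG00000014599; chromosome 3, 107648364 to 107667785) was at 18.4, 26.3 and 19.4 CPM in control and at 518.5, 338.7 and 260.2 CPM in inflamed libraries. It rose with no overlap between groups, 17.4-fold in mean CPM and by 4.12 ± 0.42 on the log2 scale (SE; adjusted p = 6.479e-05). Cxcl16 and Csf1 thus had the smallest fold changes of the 8 called members and also the smallest errors, with 989 and 1558 control counts where the other called members had 7 to 59.

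In all, 8 of the 9 tested members were called higher in inflamed islets, beside 20.7% of all tested genes. In the same 8 the inflamed and control libraries did not overlap, which held in this direction for 28.3% of all tested genes. The median log2 fold change was 7.19 over the 9 tested members and 0.05 over all 17276 genes. Because the members were chosen with earlier results of these data known, these shares and medians only describe the list.

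**Figure D3:**
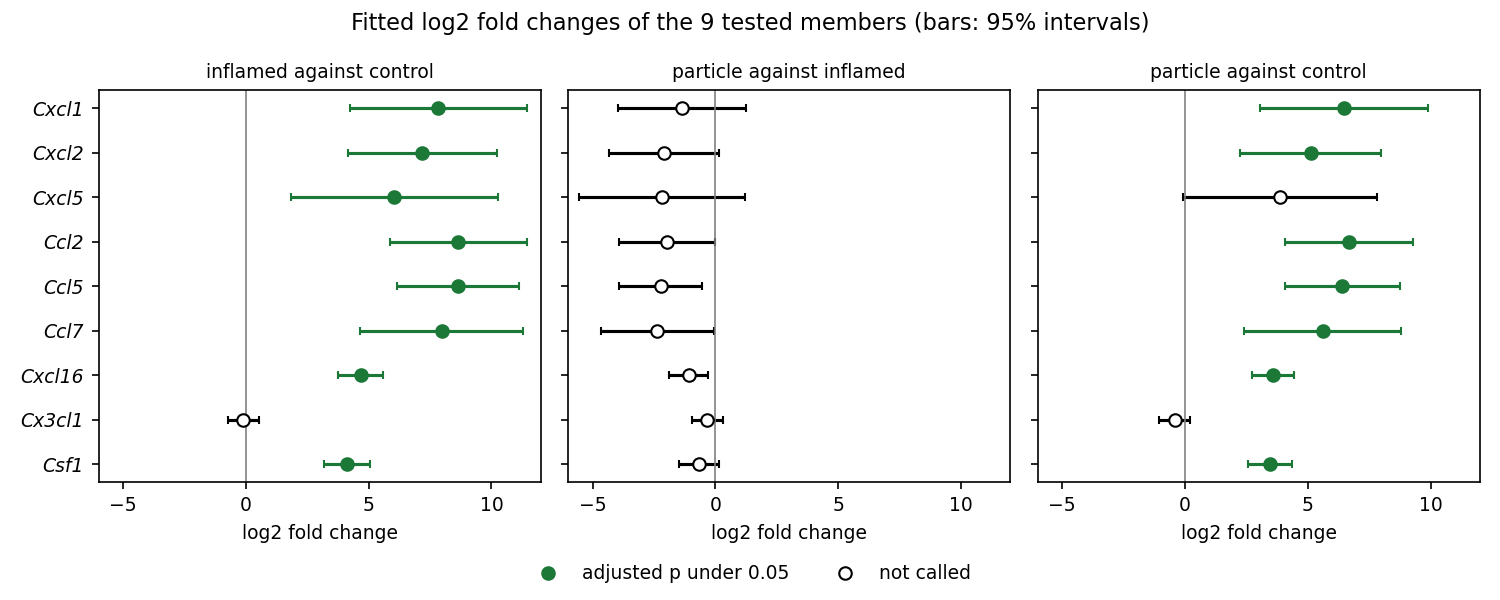
Fitted log2 fold changes of the 9 tested members in the 3 comparisons (x axis; bars, 95% intervals; filled green, adjusted p under 0.05; open, not called). Inflamed against control has 8 filled points between 4.12 and 8.64, particle against inflamed has none and all its points are below 0, and particle against control has 7.

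With the particles, all 9 tested members had lower fitted values than with cytokines alone, and none of the differences passed the test. In this comparison 0.0% of all tested genes were called, so the members' count of 0 stands beside a count of 0 for the whole table. At an unadjusted p under 0.05, 4 members and 2603 genes (15.1%) differed, and 5.49% of all tested genes differed so in the lower direction. The median log2 difference was -1.97 over the members and 0.04 over all genes, 46.96% of which were below 0. The inflamed libraries enter both this comparison and that with control, so the 2 sets of values are not independent.

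Cxcl1 was at 51.2, 13.3 and 165.6 CPM in particle libraries, and particle replicate 3 lay above inflamed replicate 2. The log2 difference was -1.36 with a 95% interval from -3.98 to 1.26 (adjusted p = 0.6264). Cxcl2 was at 2.66, 1.73 and 25.5 CPM (log2 difference -2.08, interval -4.32 to 0.16; adjusted p = 0.3725), and Cxcl5 at 4.18, 0.964 and 22.9 CPM (-2.18, interval -5.56 to 1.21; adjusted p = 0.5351). For all 3 CXCR2 ligands particle replicates 1 and 2 lay below every inflamed library and replicate 3 did not.

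Ccl2 was at 23.6, 7.84 and 93.5 CPM in particle libraries, again with only replicate 3 inside the inflamed range (log2 difference -1.97, interval -3.93 to -0.02; adjusted p = 0.3255). Ccl7 followed the same order at 3.10, 1.005 and 10.8 CPM (-2.37, interval -4.67 to -0.06; adjusted p = 0.3174). Ccl5, at 13.0, 4.74 and 32.5 CPM, was below every inflamed library (-2.22, interval -3.91 to -0.53; adjusted p = 0.2187). Cxcl16, at 172.4, 72.7 and 231.7 CPM, was likewise below every inflamed library (-1.09, interval -1.88 to -0.30; adjusted p = 0.201). Ccl5 and Cxcl16 were the 2 members with no overlap in this direction, which held for 6.82% of all tested genes. Csf1, at 298.9, 109.7 and 297.7 CPM, overlapped the inflamed libraries (-0.66, interval -1.48 to 0.16; adjusted p = 0.4398), as did Cx3cl1 at 24.0, 13.7 and 18.3 CPM (-0.34, interval -0.96 to 0.29; adjusted p = 0.6266).

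Particle replicate 3 moved these calls. Without it, 3 members were called lower than in inflamed islets, beside 1.71% of all genes tested in that fit. These were Cxcl2 (log2 difference -4.26; adjusted p = 0.01624), Ccl2 (-3.38; adjusted p = 0.03323) and Ccl5 (-3.14; adjusted p = 0.04395). Leaving out any other library called no member. With DESeq2 on all libraries, 1 member was called lower, Cxcl16 (-1.11; DESeq2 adjusted p = 0.04879), beside 1.71% of genes called lower by that tool.

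Most of these transcripts were higher in islets with cytokines and particles than in untreated islets. Of the 9 tested members, 7 were called higher, beside 11.4% of all tested genes. The calls of this comparison over all genes were 65.7% in the higher direction with TMM factors, 84.3% with library totals alone and 42.7% on log2(FPKM + 1). Libraries did not overlap in 7 tested members and in the untested Ccl20, and 22.9% of all tested genes had no overlap in this direction. Cxcl16 (log2 fold change 3.58 ± 0.40 SE; adjusted p = 1.403e-04) and Csf1 (3.46 ± 0.41 SE; adjusted p = 2.383e-04) kept their call under every alternative. Ccl2 (6.67; adjusted p = 0.006744) and Ccl5 (6.41; adjusted p = 0.004202) lost theirs with limma-voom, and Ccl2 also without control replicate 3.

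Cxcl1 (log2 fold change 6.48 ± 1.48 SE; adjusted p = 0.02525), Cxcl2 (5.11 ± 1.26 SE; adjusted p = 0.02811) and Ccl7 (5.60 ± 1.42 SE; adjusted p = 0.02878) passed by a smaller margin. Of 19 alternatives, Cxcl1 lost its call in 7 (adjusted p up to 0.1186), Cxcl2 in 6 (up to 0.2736) and Ccl7 in 8 (up to 0.3095). Without control replicate 2 the fitted value of Ccl7 was 10.06, which is not a bound (adjusted p = 0.05733). The fold of Cxcl2 fell to 2.92 on the log2 scale without particle replicate 3. That of Cxcl1 was 10.22 without control replicate 2, which is not a bound either. The number of members called was 4 without control replicate 1 (6.53% of all genes), 3 without control replicate 3 (4.92%), 4 without a count filter (5.91%) and 2 with limma-voom (9.5%). Cxcl5 was not called (3.86 ± 1.68 SE; adjusted p = 0.1571), and particle replicate 2, at 0.964 CPM, lay below control replicate 2 at 1.98 CPM. Cx3cl1 was not called either (-0.43, 95% interval -1.06 to 0.19; adjusted p = 0.3144).

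The 6 cytokine-treated libraries stood in 1 order for 5 members. For Cxcl1, Cxcl2, Cxcl5, Ccl2 and Ccl7 that order, from high to low, was inflamed 3, inflamed 1, particle 3, inflamed 2, particle 1 and particle 2. Ccl5 differed from it only in that inflamed 2 lay above particle 3. Inflamed replicate 3 was the highest treated library in 6 of 10 members, against 17.9% of all tested genes and 31.3% of the 3568 genes called higher in inflamed islets. Particle replicate 2 was the lowest in 9 of 10 members, against 20.7% of all tested genes and 61.8% of those 3568. A low place of particle replicate 2 was thus common among the genes that rose with cytokines. Those 3568 genes were selected for high values in the inflamed libraries, which by itself favours a particle library as the lowest. In particle replicate 2 the summed CPM of 6 alpha cell markers was 7942, against 93.2 to 475.7 in the other treated libraries, and that of 4 delta cell markers was 1635, against 50.7 to 332.6. Its sum of endothelial markers, 34.2 CPM, was also the largest among them. Its insulin share of 21.6% was close to that of inflamed replicate 3 (21.2%). Yet every beta cell marker but Ins2 was higher in particle replicate 2 than in any other treated library. Mafa was at 1263 CPM there, against 41.6 to 74.5 CPM in the others, and Ucn3 at 359.6 CPM, against 7.79 to 85.2. Acinar markers summed to 3175 CPM in particle replicate 2 and 2669 CPM in inflamed replicate 3, against 5.81 to 227.1 CPM in the other treated libraries. The part of these in the order of the libraries was not tested.

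**Figure D4:**
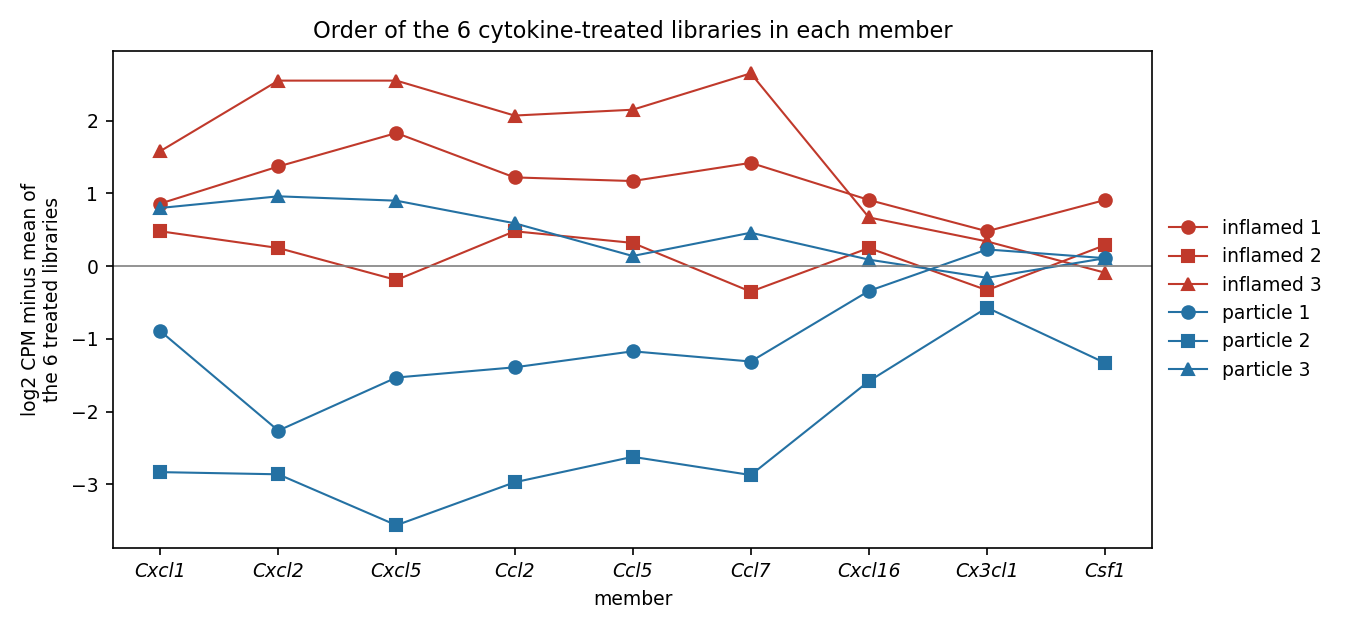
Log2 CPM of each tested member in the 6 cytokine-treated libraries, minus the mean of the 6 (y axis; lines, libraries; red, inflamed; blue, particle). Particle 2 is the lowest line in all 9 members shown, and inflamed 3 is the highest in the first 6.

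The CXCR2 ligands and 3 of the CC chemokines varied widely within the particle group. From the lowest to the highest particle library, CPM differed 12.4-fold for Cxcl1, 14.7-fold for Cxcl2, 23.7-fold for Cxcl5, 11.9-fold for Ccl2, 6.86-fold for Ccl5 and 10.7-fold for Ccl7. Cxcl16 (3.19-fold), Csf1 (2.73-fold) and Cx3cl1 (1.75-fold) varied less, and the median over all tested genes was 1.73-fold. Among inflamed libraries the same ratio ran from 1.58 for Cxcl16 to 8.11 for Ccl7, with a median of 1.60 over all tested genes.

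On the per-length scale the order of the genes changed with treatment. In control islets Cx3cl1 led at 6.47 ± 1.39 FPKM (SD, n = 3), followed by Cxcl16 at 4.42 ± 0.730 and Csf1 at 4.09 ± 0.889 FPKM, and each of these ranges overlapped the next. The other 7 members were at a mean of 0.491 FPKM or less, all below Csf1 without overlap. In inflamed islets Ccl2 had the highest mean, 140.4 ± 76.6 FPKM, followed by Cxcl16 at 109.3 ± 23.2, Cxcl1 at 102.5 ± 41.8, Ccl5 at 79.5 ± 49.7 and Csf1 at 68.6 ± 23.4 FPKM. Neighbours in that order overlapped down to Cxcl2 at 19.9 ± 15.0 FPKM, which lay above Cx3cl1 (5.83 ± 1.56 FPKM) without overlap. Cx3cl1 thus went from the first to the ninth place of 10 with means of 6.47 and 5.83 FPKM. In particle islets Cxcl16 (50.8 ± 25.6 FPKM), Csf1 (43.1 ± 20.1), Cxcl1 (39.4 ± 40.4) and Ccl2 (35.2 ± 38.3) led, with overlapping ranges.

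Among the 3 CXCR2 ligands, Cxcl1 made up 73.6 ± 9.34% of their summed FPKM in inflamed libraries (SD, n = 3) and 83.6 ± 5.18% in particle libraries. The sums were 126.9, 82.5 and 224.0 FPKM in inflamed and 30.3, 8.11 and 108.1 FPKM in particle libraries, so particle replicate 3 lay inside the inflamed range. In control libraries the sums were 0.103, 2.68 and 0.214 FPKM, too low for a share to be read.

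The receptors for most of these ligands were scarce or undetected. Cxcr1 and Cxcr2, the receptors of Cxcl1, Cxcl2 and Cxcl5, had 0 counts in all 9 libraries, as had Cxcr6, the receptor of Cxcl16, and Ccr6, that of Ccl20. A count of 0 allows up to 0.0406 CPM over the control, 0.0309 over the inflamed and 0.0440 over the particle group. Ccr2, the receptor of Ccl2 and Ccl7, had 5 counts over the control libraries and 0 in the others. Ccr3 had 4, 0 and 6 counts over the control, inflamed and particle groups. These 6 receptors were not tested.

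Of the 3 tested receptors, 2 rose in inflamed islets and 1 fell, beside 20.7% of all tested genes called higher and 19.0% called lower. Csf1r, the receptor of Csf1, was at 15.2, 16.01 and 11.95 CPM in control and at 31.4, 58.8 and 30.7 CPM in inflamed libraries (1.49 ± 0.28 SE on the log2 scale; adjusted p = 0.002199). Mean Ccr1 rose from 0.986 to 6.41 CPM (2.70 ± 0.48 SE; adjusted p = 0.001667). Ccr1 is a receptor of Ccl5 and Ccl7. Cx3cr1, the receptor of Cx3cl1, fell from 5.04, 4.83 and 2.51 CPM to 0, 0.367 and 0 CPM (adjusted p = 0.01674). It was no longer called without inflamed replicate 1 and without a count filter, with adjusted p-values up to 0.06153. No change of the ligand was called while the receptor fell. In particle libraries Csf1r was at 17.9, 13.0 and 13.6 CPM, below every inflamed library and around the controls. It was not called against inflamed (-1.44 ± 0.28 SE; adjusted p = 0.1159) and was called lower without a count filter, without particle replicate 3 and with DESeq2. No tested receptor was called in either comparison of the particle group with all libraries in edgeR. Ccr1, against inflamed (-1.80 ± 0.46 SE; adjusted p = 0.1468), was called lower without particle replicate 3 and with DESeq2. Cx3cr1 lay below every control in particle libraries (-3.37 ± 1.30 SE; adjusted p = 0.0964) and was called lower in 6 of 19 alternatives.

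Among 24 other chemokines (the CXCR3 ligands were not in this list), 13 were tested, of which 6 rose and 1 fell in inflamed islets. Over all tested genes, 20.7% rose and 19.0% fell. Cxcl3, a further CXCR2 ligand beside Cxcl1 and Cxcl2, had 0 counts in all controls and 62.9, 61.9 and 222.5 CPM in inflamed libraries, at least 3720-fold higher over the group against a floor of 3 counts (adjusted p = 0.01312). Inflamed replicate 3 held 11981 of the 14683 counts, and without it the bound was 1540-fold. Without any 1 of the other libraries it was 2320-fold to 4360-fold, the lowest without control replicate 3, and all these bounds cover counting error only. That call was lost with limma-voom (adjusted p = 0.07044), and DESeq2 gave Cxcl3 no adjusted p. In particle libraries Cxcl3 was at 4.38, 4.38 and 65.9 CPM, replicate 3 again the highest. Ccl8, a monocyte attractant, rose from 0.0138 to 8.42 CPM (8.85 ± 0.90 SE on the log2 scale; adjusted p = 6.133e-05), and Ccl12, another ligand of CCR2, from 0.0138 to 0.824 CPM (adjusted p = 0.02369, and up to 0.09871 over the alternatives). The call of Ccl12 was lost without any 1 of the controls and without inflamed replicate 2. Ccl27a, a skin T cell attractant, fell from 14.1 to 3.69 CPM (-1.93 ± 0.41 SE; adjusted p = 0.003903). Against control, 2 of the 13 were called higher in particle islets, Cxcl3 and Ccl8, beside 11.4% of all tested genes, and the call of Cxcl3 (adjusted p = 0.04587) was lost when any library but particle replicate 2 or 3 was left out.

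Of 4 tested myeloid growth factors beside Csf1, 2 rose in inflamed islets, where 20.7% of all tested genes rose. Csf3, the granulocyte colony-stimulating factor, was at 0.248, 0.46 and 0.287 CPM in control and at 9.997, 9.31 and 31.0 CPM in inflamed libraries (5.66 ± 0.93 SE; adjusted p = 0.00118). In particle libraries Csf3 was at 1.08, 0.281 and 4.01 CPM, below every inflamed library (-3.23 ± 0.80 SE; adjusted p = 0.1347), and it was called lower without particle replicate 3 and with DESeq2. Kitl, the ligand of the stem cell receptor Kit, rose from 0.395 to 2.30 CPM (2.54 ± 0.71 SE; adjusted p = 0.01535), a call lost without control replicate 1 or 3. Csf2 was not tested, with 0, 19 and 11 counts over the control, inflamed and particle groups.

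Of the 5 atypical receptors, which bind chemokines without the usual signal, 2 were tested and 1 rose, beside 20.7% of all tested genes. Ccrl2 rose from 5.74, 7.73 and 7.43 CPM to 231.9, 208.0 and 217.8 CPM in inflamed libraries (4.98 ± 0.36 SE; adjusted p = 5.62e-06), and was at 217.3, 79.1 and 153.4 CPM in particle libraries. Of 8 genes that cleave chemokines or control their mRNA, 4 rose and 1 fell, beside 20.7% and 19.0% of all tested genes. Adam17, a sheddase of membrane-bound proteins, rose from 14.3 to 53.8 CPM (1.91 ± 0.24 SE; adjusted p = 2.523e-04). Adam10, the sheddase of Cx3cl1 and Cxcl16 in resting cells, rose from 20.3 to 36.9 CPM (0.86 ± 0.25 SE; adjusted p = 0.01755), lost without control replicate 1 or 3 or inflamed replicate 3. It was singled out after its values were seen. Zc3h12a, an endonuclease that degrades cytokine mRNA, rose from 2.35 to 86.2 CPM (5.20 ± 0.44 SE; adjusted p = 1.643e-05), and Zfp36, which binds AU-rich elements of such mRNA, from 20.2 to 85.3 CPM (2.08 ± 0.30 SE; adjusted p = 5.969e-04). Dpp4, a protease that trims chemokine N termini, fell from 58.5 to 5.30 CPM (-3.48 ± 0.44 SE; adjusted p = 2.578e-04). The same 5 were called in particle against control, 4 higher and 1 lower, where 11.4% of all tested genes were called higher and 5.92% lower. The call of Adam10 there (0.83 ± 0.25 SE; adjusted p = 0.04202) was lost in 11 of 19 alternatives, with adjusted p-values up to 0.1791. None was called in particle against inflamed.

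The signalling genes upstream of these chemokines were measured as well. Of 13 NF-kB pathway genes, all tested, 11 rose in inflamed islets and 0 fell, beside 20.7% and 19.0% of all tested genes. Their median log2 fold change was 2.58 against 0.05 over all genes. Nfkb2, a subunit of the non-canonical branch, rose from 16.1 to 179 CPM (3.48 ± 0.23 SE; adjusted p = 3.479e-06) and Relb, its partner, from 8.12 to 82.0 CPM (3.34 ± 0.29 SE; adjusted p = 2.092e-05). Nfkbib, an inhibitor of NF-kB, rose from 31.7 to 154 CPM (adjusted p = 2.783e-05), and Tnfaip3, a feedback enzyme that limits the pathway, from 2.56 to 75.4 CPM (adjusted p = 3.052e-05). Ikbkb and Chuk, the catalytic kinases, were not called. In particle against control 10 of the 13 were called higher, beside 11.4% of all tested genes. In particle against inflamed 0 of 13 were called. Of the 6 receptor genes for the 3 cytokines, 3 rose and 2 fell in inflamed islets, beside 20.7% and 19.0% of all tested genes. Tnfrsf1a rose from 91.3 to 299.9 CPM (1.72 ± 0.20 SE; adjusted p = 1.327e-04) and Tnfrsf1b from 4.31 to 44.4 CPM (3.36 ± 0.27 SE; adjusted p = 1.229e-05), both receptors of TNF. Il1r1, the interleukin-1 receptor, fell from 300.0 to 41.4 CPM (-2.86 ± 0.42 SE; adjusted p = 5.971e-04) and Il6ra, the interleukin-6 receptor, from 98.4 to 23.1 CPM (-2.09 ± 0.30 SE; adjusted p = 5.707e-04).

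Markers of leukocytes that carry the missing or scarce receptors moved with these genes in part. The summed CPM of 16 macrophage markers was 318.3 to 398.9 in control, 1032 to 1151 in inflamed and 346.2 to 518.3 in particle libraries, with no marker at 0 in any group. Of the 15 tested, 12 rose in inflamed islets and 1 (Cx3cr1) fell, beside 20.7% and 19.0% of all tested genes. Against inflamed 0 were called in particle islets. Against control 3 were called higher and 1 lower, beside 11.4% and 5.92% of all tested genes. The macrophage sums of particle libraries lay below the inflamed range, as for Ccl5 and Cxcl16, and unlike those 2 chemokines reached down into the control range. Single markers did not all do so. Adgre1, Ptprc and Mertk overlapped the inflamed libraries, with Adgre1 at 8.41 CPM in particle replicate 3 and 5.53 CPM in inflamed replicate 1. The mean of Cx3cr1 was higher in particle than in inflamed libraries. The part of the macrophage markers in the chemokine levels was not tested.

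The summed CPM of 9 neutrophil markers was 0.0359 to 0.322 in control, 5.58 to 11.1 in inflamed and 0.591 to 6.80 in particle libraries, where replicate 3 was the highest, as for the CXCR2 ligands. S100a9 (5.42 CPM in inflamed libraries; adjusted p = 0.002135) rose among the 2 tested. The defining genes Mpo and Cxcr2 had 0 counts in every library, Elane had 0 in the treated ones, and Ly6g had 37 counts over the inflamed group. The sum of 4 monocyte markers was 0.287 to 0.552 CPM in control, 1.38 to 2.21 in inflamed and 1.26 to 2.21 in particle libraries, so neither treated group overlapped the controls. Plac8 made up nearly all of the treated sums, with a mean of 1.89 of 1.91 CPM in inflamed and 1.85 of 1.88 CPM in particle libraries. The sums thus follow that gene. Chil3 was at 0 throughout, and Ly6c2 had 0, 1 and 2 counts over the control, inflamed and particle groups. Ccr2 went the other way, with 5 counts over the controls and 0 in the treated libraries. Plac8, the only monocyte marker tested, rose in inflamed (2.62 ± 0.59 SE on the log2 scale; adjusted p = 0.005397) and in particle islets (2.59 ± 0.59 SE; adjusted p = 0.01483) against control. Endothelial markers summed to 31.6 to 82.0 CPM in control, 7.11 to 11.7 in inflamed and 7.43 to 34.2 in particle libraries. Of these 9 markers, 6 fell in inflamed islets, beside 19.0% of all tested genes. Islet cell markers moved too. In inflamed islets 9 of 10 beta cell markers and 5 of 6 alpha cell markers were called lower, beside the same 19.0%. The sum of 9 duct cell markers was 970.2 to 1096 CPM in control libraries. It was 1371 to 2584 CPM in inflamed and 1542 to 1699 CPM in particle libraries. In inflamed islets 3 of the 8 tested rose and 1 fell, beside 20.7% and 19.0% of all tested genes. Control replicate 2, which held most control counts of Cxcl1, Cxcl5 and Ccl7, had the largest acinar sum of the controls (1366 CPM, against 22.4 and 182.1). Its stellate and fibroblast sum (258.2 CPM, against 68.2 and 118.9) and endothelial sum (82.0 CPM, against 31.6 and 42.7) were also the largest. The part of all these in the chemokine levels was not tested.

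**Figure D5:**
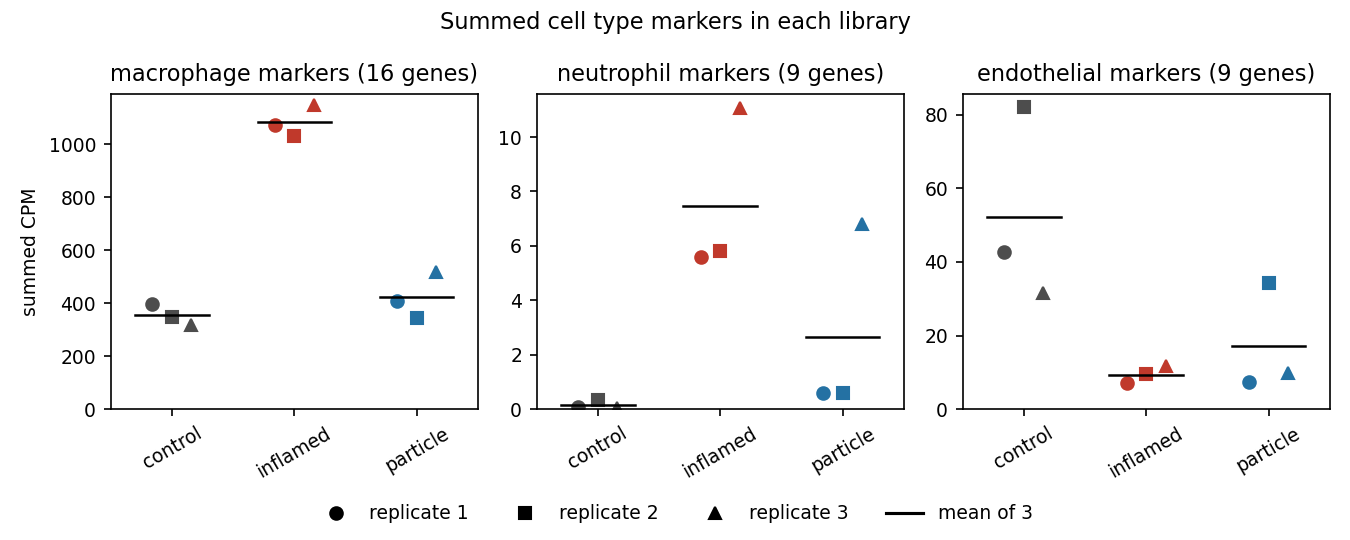
Summed CPM of macrophage, neutrophil and endothelial markers in each library (symbols, replicates; horizontal bars, the mean of 3 libraries; each panel has its own scale, from 0). Macrophage sums are 1032 to 1151 CPM in inflamed libraries and at most 518.3 CPM elsewhere, while neutrophil sums do not exceed 11.1 CPM.

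The genes most like the members were found as the smallest mean absolute difference between log2 CPM profiles, each centred on its own mean, over the 9 libraries. For the mean profile of the 9 tested members they were Clec4e (0.37), Ptgs2 (0.38), Orm1 (0.44), Clec4d (0.45) and S100a9 (0.47). Clec4e and Clec4d encode C-type lectin receptors of myeloid cells, Ptgs2 the inducible cyclooxygenase and Orm1 an acute phase protein. Single members had other nearest genes, namely Ltf for Cxcl1 (0.67), Ptgs2 for Cxcl2 (0.42), Il6 for Cxcl5 (0.41) and Ccl2 (0.63), Ly6i for Ccl5 (0.69) and Mmp13 for Ccl7 (0.43). Nfkbia, the NF-kB inhibitor, was the nearest to both Csf1 (0.16) and Cxcl16 (0.26), and Fbxo46 was the nearest to Cx3cl1 (0.19). Between members the closest pairs were Cxcl16 with Csf1 (0.30), Ccl2 with Ccl5 (0.51) and Cxcl5 with Ccl7 (0.51). Cx3cl1 was 1.77 or more from every other tested member. The chromosomal neighbours were not the closest pairs, with a distance of 1.38 between Cxcl1 and Cxcl2 and 0.64 between Ccl2 and Ccl7. These distances include the controls, where Cxcl1 had 2, 56 and 1 counts and Cxcl2 had 3, 8 and 10. The treated libraries stood in the same order for Cxcl1 and Cxcl2. All libraries enter both profiles of a pair, so these distances are a description.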

How the data were processed

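Islet RNA was sequenced in 9 libraries, 3 per group, grouped by title. The deposited counts are unnormalized whole-number reads per gene. The FPKM deposited by the authors divide each count by gene length and 1 constant per library. HTSeq, DESeq2 and GRCm39 are named per the submitters' processing notes; versions and strandedness are not given in the sources used here. Control columns do not name their group and were identified as the 3 remaining.

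Counts were tested with edgeR 4.0.16 (R 4.3.3; filterByExpr with a minimum count of 10, TMM factors, robust quasi-likelihood fit of all 9 libraries, Benjamini-Hochberg adjustment). DESeq2 1.42.0, limma 3.58.1 (voom, and trend on log2(FPKM + 1) or log2(FPKM + 0.1)), other scalings, filters, a replicate block and leaving out each library were alternatives. No pair of replicates differed by as little as sampling noise (chi-square per degree of freedom 43.4 to 207). On simulated counts, the test found 81 of 100 genes changed 16-fold in inflamed against control (16714 genes) and 90 of 100 in particle against inflamed (16688 genes). At 4-fold it found 54 and 63. Changes were planted in genes drawn at random, around their mean over all libraries and with a capped dispersion. The planted genes were not matched to the members' low control counts or spread, so these rates do not give the power for the members.

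Members and gene lists were chosen with earlier results of these data known. Of the listed genes, 2 are not reported here and enter no count of a list. Named are all members, their receptors, up to 4 genes per list by smallest adjusted p in inflamed against control, and the genes most like the members. Promoters are RefSeq windows of an earlier build, used for sequence only; the kappaB consensus replaced looser letters tried first.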

Additional observations from a re-analysis of the deposited data

How the results depend on the processing

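The number of members called in inflamed against control was 6 to 8 under all 19 alternatives. Over all genes, 6842 of 17276 were called in that comparison (20.7% higher and 19.0% lower). Under the alternatives 4679 to 7711 genes were called in it. In particle against inflamed it was 1 with DESeq2 and 0 to 3 when each library was left out. In particle against control it was 4 without a count filter, 2 with limma-voom and 3 to 7 when each library was left out. Over all genes, calls in particle against inflamed were 0 with edgeR (2603 at an unadjusted p under 0.05), 1 with library totals, 221 without a count filter, 783 with DESeq2, 15 with limma-voom, 16 on log2(FPKM + 1), 14 on log2(FPKM + 0.1) and 0 to 942 when each library was left out. In particle against control they were 2983, and 1115 to 4545 when each library was left out. The cause was not tested.

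The sign turned in 13 fitted values, none of them called. Cx3cl1, inflamed against control, was 0.07 with library totals, where the median of all genes moved from 0.05 to 0.22, and -0.31 to 0.10 when each library was left out (0.10 without inflamed replicate 2). Csf1r, particle against control (0.04), was -0.02 with RLE factors, DESeq2 and both FPKM fits, -0.01 without a filter and -0.12 without control replicate 3 or particle replicate 1. In particle against inflamed, Adam10 (-0.04) was 0.09 with library totals, 0.14 without inflamed replicate 3 and 0.15 without particle replicate 2 (from -0.26), and Relb (-0.20) was -0.40 to 0.11, the highest without inflamed replicate 1. The median of all genes under library totals was 0.13 in particle against inflamed and 0.32 in particle against control.

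Over all tested genes, deviations of same-numbered libraries of different groups correlated at -0.184 to 0.206. The labels do not say that a number pairs samples, and the main fit did not pair them. For Cxcl1, Cxcl2, Cxcl5, Ccl2, Ccl5 and Ccl7 the replicates ran 3, 1, 2 from high to low in both treated groups. Each particle library of these genes lay below the inflamed library of its number. The replicates of Cxcl16, Csf1 and Ccl20 ran in different orders in the inflamed and particle groups, and those of Cx3cl1 ran 1, 3, 2 in both. In inflamed against control, a replicate block lowered the SE of Cxcl2 (1.33 to 0.74), Ccl2, Ccl5, Ccl7, Cxcl16 and Cx3cl1. It raised that of Cxcl1 (1.55 to 1.70), Cxcl5 and Csf1. With a replicate block 7, 0 and 6 members and 6116, 0 and 2598 genes were called, in the order inflamed against control, particle against inflamed, particle against control. The called members other than Cxcl16 and Csf1 had 7 to 59 control counts, which limits the precision of their fitted folds.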
